A study of Mus musculus with 3 samples.

Results

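In cultures of MMTV-PyMT mammary tumor cells from 3 mice, 50 named genes had more signal with RANKL (RL) than without it on all 3 arrays and whose mouse symbol was not in the study's published list of RL-induced tumor genes. They were chosen by the measured ratio of RL over control itself: a probe of the gene had to be well above background in both channels of every array and to have a log2 ratio of 0.25 or higher in each of the 3 tumors, which is 1.19-fold, computed from the processed signals of the scanner software. Of 13667 named genes with a probe that bright, 83 had a probe past this threshold (0.607%), of which 32 were in the published list, 1 (Alox12e) was left out by the rule, and the remaining 50 are described here. That list gives human gene names, and it was matched by symbol alone, ignoring case, so a member can be in it under another name. This holds for 1110032F04Rik, the member with the largest mean, whose human counterpart is C3orf80, a name in the list. The list also holds MT1M and HLA-C, names of the metallothionein and class I families of Mt2 and H2-Q5, and which mouse genes these stand for is not known. All ratios of these genes come from the contrast that selected them, so they are given as a description and carry no test.

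RANK is a receptor of the tumor necrosis factor receptor family on mammary epithelial cells, and RL is its ligand. Receptor binding recruits TRAF adaptors and activates both the classical and the alternative NF-κB pathway, whose targets include their own inhibitors, cytokines, adhesion molecules and defense genes. In the mammary gland, progesterone raises RL in hormone-sensing cells, and RL then acts on neighboring RANK-positive cells and expands progenitors.

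The cells came from mmtv-PyMT primary tumors coded 811a, 812a and 815a, called tumors 1, 2 and 3 here, in which the mouse mammary tumor virus promoter drives the polyoma middle T oncogene in mammary epithelium. Each tumor gave 1 control culture and 1 culture with RL for 24 h, in DMEM F12 with 5% serum, cholera toxin, insulin, EGF and growth factor-reduced matrigel, and RL was added 24 h after plating. The labels put the dose at 1000 µg/ml and the methods at 1 µg/ml. Both cultures of a tumor shared 1 two-color Agilent array, with RL in Cy3 in tumors 1 and 3 and in Cy5 in tumor 2, so tumor and dye order cannot be told apart in tumor 2. The methods name dye swaps of each sample, whereas the series holds 1 array per tumor. The methods name FVB/N and C57BL/6 backgrounds for MMTV-PyMT mice, and the labels of these 3 mice give no strain, age or RANK genotype. All 9 markers fixed for mammary epithelium, Krt18 the brightest, were well above background in every channel, with median log2 ratios of 0.17, −0.20 and −0.02 in tumors 1, 2 and 3 and a summed processed signal of 259575, 190608 and 311863 in the controls and 237059, 185485 and 284121 with RL. Having only 3 arrays limits how precise each value is.

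More probes met the mirrored threshold than the threshold itself. Of 28098 probes well above background in all 6 channels, called bright here, 167 were at 0.25 or higher in all 3 tumors (0.594%), and 227 were at −0.25 or lower in all 3 (0.808%). Taken as gene names, these were 83 (0.607%) and 137 (1.0%) of 13667, with none in both. All 32 published genes that met either bound were on the higher side. That list is of RL-induced genes and may come from these arrays, so nothing is read from this. In tumors 1, 2 and 3, 13.5%, 9.74% and 12.1% of the bright probes had a ratio of 0.25 or higher on that array alone. Each of the 50 genes met the rule through 1 probe, which had 1 spot on each array, and none of these spots was marked as an outlier.

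The ratios of the 50 genes were small. In tumors 1, 2 and 3 their median log2 ratios were 0.49, 0.35 and 0.35, against 0.01, 0.00 and 0.01 for all bright probes. Averaged over the 3 tumors, the ratios ran from 0.26 to 1.15 with a median of 0.44, or 1.36-fold. A mean of 0.5 or more was reached by 15 genes, and 3 genes were at 0.5 or higher in each tumor. Tumor 1 held the highest ratio for 31 genes, tumor 2 for 9 and tumor 3 for 10, and the lowest ratio lay in tumor 2 for 22 genes. The SD over the 3 tumors had a median of 0.15 across the genes.

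**Figure D1:**
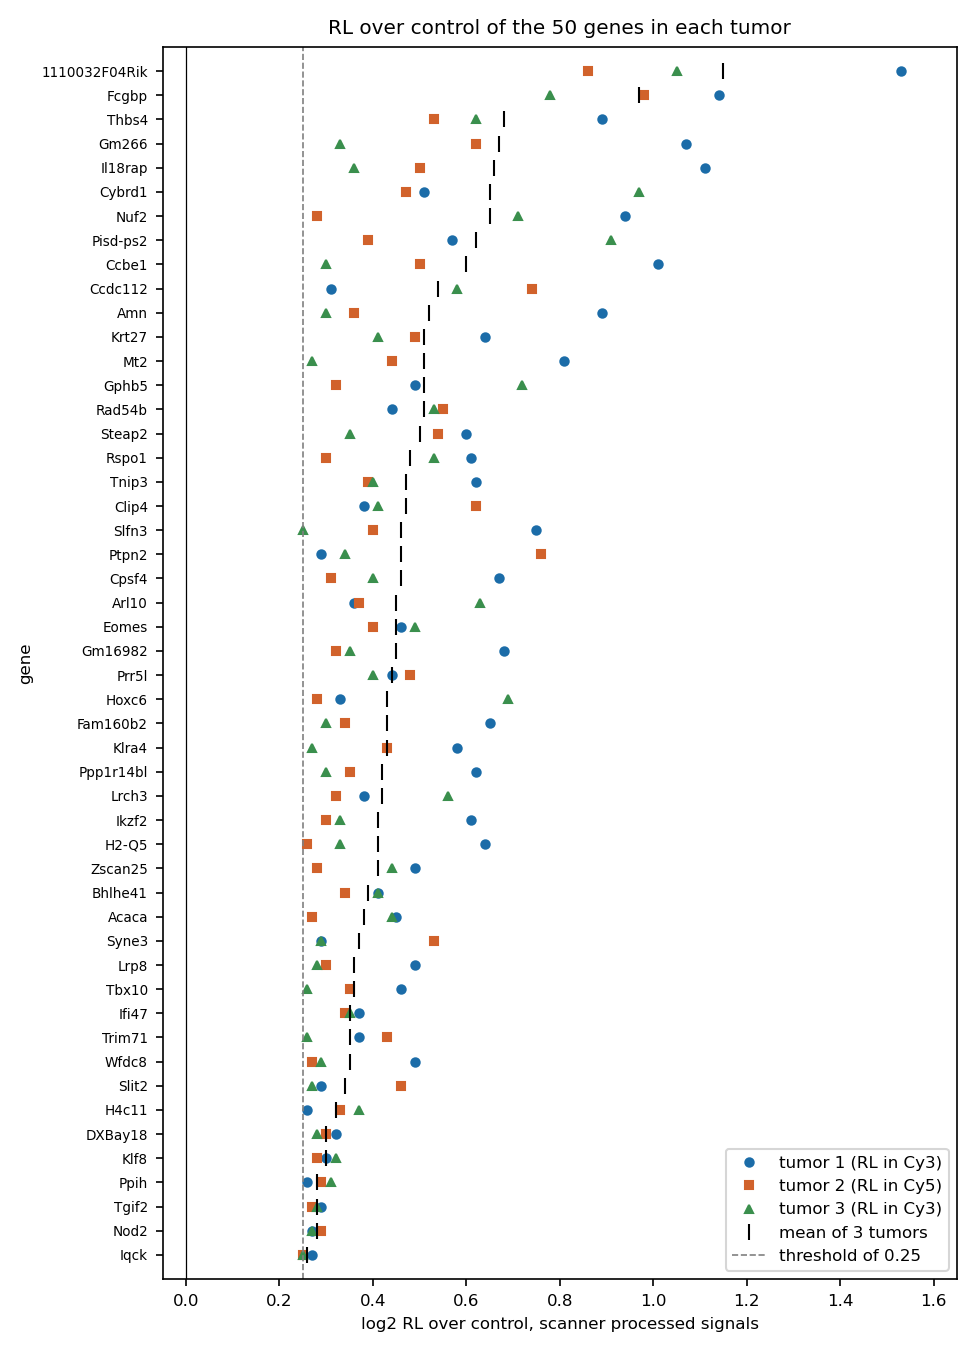
Log2 ratio of RL over control, from the scanner's processed signals, for each of the 50 genes (in order of their mean), with 1 symbol per tumor, a black tick at the mean of the 3 tumors and a dashed line at the threshold of 0.25. All symbols lie at or right of the line because the rule put them there, and the means run from 0.26 for Iqck to 1.15 for 1110032F04Rik.

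In the fixed list of NF-κB subunits and inhibitors, Tnip3 was the member of the group. It encodes ABIN-3, of the family of A20-binding proteins. Its processed signal was 18.1, 35.6 and 56.5 in the control channels of tumors 1, 2 and 3 and 27.9, 46.7 and 74.8 in the RL channels. The log2 ratios were 0.62, 0.39 and 0.40, so tumor 1 was highest and the other tumors were alike, while the control signal differed more between tumors than it did with RL. A further Tnip3 probe was not well above background and had ratios of 1.05, 0.31 and −0.41. Of the 19 genes of that list, 18 were bright enough and 5 met the rule, of which 4 are in the published list. Of all named bright genes, 0.607% met the rule. Nfkb2, the precursor of the p52 subunit, had ratios of 1.3, 0.44 and 0.19, and Relb, its partner, had 1.25, 0.43 and 0.26. Nfkb2 thus missed the threshold in tumor 3 and Relb passed it.

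The promoter of Tnip3 and those of 2 further genes are shown because RL signals through NF-κB and each holds a match to a motif searched for it, the NF-κB consensus or GGANTTTCC. Cybrd1 and Steap2 hold a consensus match too, and the 3 shown were picked with the matches known, for their roles in signaling. RefSeq promoters (GRCm38.p6), each of 250 bases before and 50 after a start, were at hand for 39 of the 50 genes, in 51 windows, and were searched on both strands. The NF-κB consensus, named here without its letters, was found in the windows of 4 genes (10.3% of 39), Tnip3, Rspo1, Cybrd1 and Steap2, the last named after its match was seen. By gene, it was found in 9.55% of the 27025 genes in the table. By promoter, it was found in 4 of the 51 windows (7.84%), against 8.46% of all 32851 promoters, so the order of the shares turned with the unit counted. The motif GGANTTTCC was found for 1 gene, Il18rap (2.56% of genes and 1.96% of windows), against 1.45% of all genes and 1.25% of all promoters, and none of the 39 genes had both. These 3 sequences follow, 5′ to 3′, with the matched letters in capitals. Tnip3 lies at chr6:65590148-65590447 on the plus strand, and its match begins 54 bases before the start. Rspo1 lies at chr4:124986180-124986479 on the plus strand, where a pair of overlapping matches begins 3 and 2 bases before the start. Il18rap lies at chr1:40515112-40515411 on the plus strand, and its match begins 19 bases before the start. The Il18rap capitals fit GGANTTTCC when read on the minus strand.

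Tnip3: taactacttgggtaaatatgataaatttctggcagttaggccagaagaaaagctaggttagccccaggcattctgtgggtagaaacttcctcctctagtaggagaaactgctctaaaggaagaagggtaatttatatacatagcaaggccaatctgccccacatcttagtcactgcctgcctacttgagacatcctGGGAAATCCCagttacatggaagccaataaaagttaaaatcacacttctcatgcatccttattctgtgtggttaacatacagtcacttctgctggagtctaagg
Rspo1: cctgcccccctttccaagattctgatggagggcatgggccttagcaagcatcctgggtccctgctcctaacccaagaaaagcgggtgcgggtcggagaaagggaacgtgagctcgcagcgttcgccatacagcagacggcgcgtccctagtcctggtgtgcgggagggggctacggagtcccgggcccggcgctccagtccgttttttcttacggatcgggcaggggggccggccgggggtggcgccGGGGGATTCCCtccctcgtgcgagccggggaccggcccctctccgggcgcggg
Il18rap: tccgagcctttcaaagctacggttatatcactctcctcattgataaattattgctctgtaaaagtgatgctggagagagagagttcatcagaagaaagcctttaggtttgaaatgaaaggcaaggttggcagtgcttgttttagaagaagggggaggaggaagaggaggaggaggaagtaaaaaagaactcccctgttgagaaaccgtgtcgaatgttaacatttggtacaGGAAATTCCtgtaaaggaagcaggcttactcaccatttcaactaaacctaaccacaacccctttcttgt

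The capitals are letters in a window and not measured binding sites. The motif TGANTCA, a looser form of the AP-1 site, was found for 3 genes, Cybrd1, Gphb5 and Mt2 (7.69% of genes and 5.88% of windows), against 8.97% of all genes and 7.81% of all promoters. The interferon-stimulated response element, by its name, was found for 1 gene, Eomes (2.56% of genes and 1.96% of windows), named after its match was seen, against 0.189% of all genes and 0.17% of all promoters. Of the published genes past the same rule, 24 had a promoter, and 4 of these (16.7%) held the NF-κB consensus, 4 (16.7%) TGANTCA, 2 (8.33%) GGANTTTCC and 0 the interferon-stimulated response element.

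A list of epithelial defense genes held Fcgbp and Nod2. Fcgbp, a mucus protein of secretory epithelia that binds IgG, had the second largest mean. Its signal was 1299, 62.9 and 160 in the controls of tumors 1, 2 and 3, and 2870, 124 and 275 with RL. Its log2 ratios were 1.14, 0.98 and 0.78 (mean 0.97 ± 0.18, SD, n = 3 tumors), the largest ratio of any of the 50 genes in tumor 2, although its control signal differed widely between the tumors. Nod2, a cytosolic sensor of bacterial cell wall fragments that signals to NF-κB, had signals of 74.7, 158 and 125 in the controls and 89.8, 194 and 151 with RL. Its ratios of 0.27, 0.29 and 0.27 were near the threshold and nearly equal by processed signals. After the normexp and loess steps given below they were 0.18, 0.27 and 0.07. In the list of epithelial defense genes, 30 of 50 genes were bright enough and 3 met the rule upward, where 0.607% of all named bright genes did. The mirrored rule was met by 2, Duox1 and Muc5b, chosen after their values were seen, where 1.0% of all named bright genes met it.

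Il18rap, which is in no fixed list, encodes the accessory chain of the interleukin-18 receptor. Its signal was 11.9, 9.58 and 53.9 in the controls and 25.6, 13.6 and 69.0 with RL, which gave log2 ratios of 1.11, 0.50 and 0.36. The neighboring gene Il18r1, which encodes the ligand-binding chain and is named after its value was seen, is in the published list and had ratios of 0.72, 0.39 and 0.41. In the fixed list of interleukins, growth factors and receptors, 47 of 57 genes were bright enough, 1 met the rule and 0 were members. The rule was met by 0.607% of all named bright genes, so nothing is read from that count. A further 3 genes known from lymphocytes were chosen after their values were seen. Eomes, a T-box factor of cytotoxic lymphocytes, had ratios of 0.46, 0.40 and 0.49, on control signals of 22.7, 8.99 and 45.4. Klra4, a receptor of natural killer cells, had 0.58, 0.43 and 0.27, and Ikzf2, a zinc finger factor of T cells, had 0.61, 0.30 and 0.33. After the normexp and loess steps given below, Eomes had 0.12, 0.01 and 0.24. Klra4 then had 0.47, 0.24 and 0.26, and Ikzf2 had 0.32, 0.15 and 0.14. Further probes of Eomes and Klra4 were not well above background. That of Ikzf2 was, with processed-signal ratios of 0.35, 0.58 and −0.20. Among fixed T cell markers, Cd3e and Cd4 were well above background in all channels, Cd3g and Cd8a were not, and Trbc2 had no probe of that name. The median ratio of the former pair was 0.06, −0.04 and −0.06 in tumors 1, 2 and 3, and their summed signal was 1001, 842 and 924 in the controls and 1031, 827 and 877 with RL, with Cd4 the brightest. Of 4 general leukocyte markers, 3 were bright enough, all but Ptprc, with median ratios of −0.10, −0.16 and −0.02 and a summed signal of 184, 87 and 217 in the controls and 166, 79 and 217 with RL. All 3 B cell markers were not well above background. The 8 macrophage markers, all bright enough and led by Csf1r, had median ratios of −0.41, −0.18 and 0.05 and a summed signal of 1750, 975 and 1763 in the controls and 1441, 923 and 1827 with RL. The 8 fibroblast markers, all bright enough and led by Col1a2, had median ratios of −0.30, 0.11 and −0.08 and a summed signal of 6545, 2789 and 14384 in the controls and 5414, 3004 and 13642 with RL. Of 5 neutrophil markers, 3 were bright enough, led by Csf3r, with median ratios of −0.29, −0.13 and −0.03 and a summed signal of 34318, 38439 and 34252 in the controls and 35206, 34244 and 33427 with RL. The part of other cell types in the ratios was not tested, and in bulk cultures fewer cells of a type and less RNA per cell cannot be told apart.

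Of the mammary progenitor and hormone genes, Rspo1 was a member. R-spondin 1 is a secreted protein that strengthens Wnt signaling and is made by luminal mammary cells. Its signal was 29.5, 297 and 49.9 in the controls and 44.9, 366 and 72.3 with RL, and its ratios were 0.61, 0.30 and 0.53. Tumor 2 had the highest signal in both channels and the lowest ratio. Rspo1 was also the 1 gene of the 50 found in the study's lists of RL-induced genes of mammary epithelial cells. It made up 2% of the 50 genes, and 1.72% of the 58 genes listed for wild-type cells and 1% of the 100 listed for RANK-overexpressing cells. Of all 13667 named bright genes, 56 (0.41%) were in the former list and 87 (0.637%) in the latter. Of the 32 published tumor genes past the same rule, 7 and 12 were in these lists.

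A further 3 members belonged to fixed lists of other functions. Mt2, a metallothionein that binds zinc and copper, had signals of 23137, 30522 and 37765 in the controls and 40648, 41486 and 45501 with RL, so the RL channels were closer to each other than the controls were. Its ratios were 0.81, 0.44 and 0.27. Acaca, the carboxylase that makes malonyl-CoA for fatty acid synthesis, had ratios of 0.45, 0.27 and 0.44. The rule itself put its probe above 0 in all tumors. It was the 1 such gene among 32 bright genes of the fatty acid and sterol list, so nothing is read from that. Further bright Acaca probes had −0.03, 0.16 and −0.02 and 0.38, 0.20 and 0.17. The median ratio of that list was −0.14, −0.03 and −0.03, and Scd1, named after its value was seen, met the mirrored rule. Slit2, a secreted guidance cue for Robo receptors, had a signal of 16.6, 66.0 and 148 in the controls, 20.3, 90.7 and 178 with RL, and ratios of 0.29, 0.46 and 0.27. Across all 25 fixed lists, 684 of 834 genes were bright enough and 26 of these (3.8%) met the rule, against 0.607% of all named bright genes, and 18 of the 26 were in the published list. The lists held 7 of the 50 genes (14%), against 5% of all named bright genes, and the other 43 belonged to none of them. The lists were written with earlier results known, so these shares are a description.

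**Figure D2:**
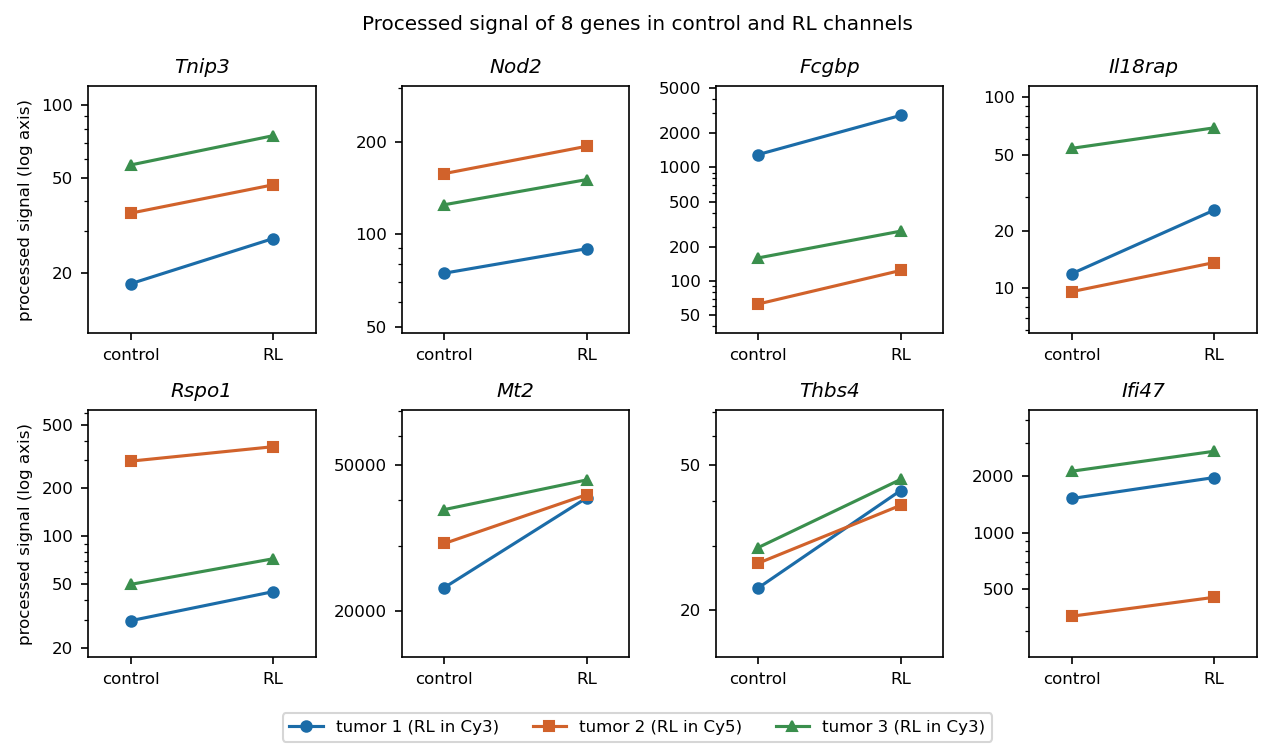
Processed signal (log axis, arbitrary intensity units) of 8 genes in the control and RL channel of each tumor, joined by a line for each array. The RL channel is the brighter one on every array, as the rule required, while the level of Fcgbp in controls runs from 62.9 in tumor 2 to 1299 in tumor 1.

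The gene with the largest mean was 1110032F04Rik, named only by its clone. Its signal was 27.9, 28.4 and 27.1 in the controls and 80.7, 51.6 and 56.1 with RL. Its control signals were nearly equal and dim. By processed signals, its log2 ratios of 1.53, 0.86 and 1.05 (mean 1.15 ± 0.35, SD, n = 3 tumors) made it the 1 gene of the 50 with a mean above 1. After the normexp and loess steps given below its mean was 0.54, against 0.82 for Fcgbp. With the authors' ratios the means were 0.81 and 0.91, so Fcgbp was the higher by both. Thbs4, a thrombospondin of the extracellular matrix, had signals of 23, 26.9 and 29.7 in the controls and 42.6, 38.8 and 45.7 with RL, with ratios of 0.89, 0.53 and 0.62. By processed signals, 1110032F04Rik, Thbs4 and Fcgbp were the 3 at 0.5 or higher in each tumor. Gm266, a predicted gene, had ratios of 1.07, 0.62 and 0.33.

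Other genes with large means were of varied function. Cybrd1, a ferric reductase of the cell surface, had ratios of 0.51, 0.47 and 0.97. Steap2, a further metalloreductase, is outside the 15 largest means and was named for its promoter match. It had ratios of 0.60, 0.54 and 0.35, on control signals of 15.1, 14.8 and 26.8. Its mean was 0.14 after the normexp and loess steps given below. A further Steap2 probe well above background had −0.21, 0.23 and −0.09. Nuf2, a kinetochore protein, had ratios of 0.94, 0.28 and 0.71, and Rad54b, of homologous recombination, had 0.44, 0.55 and 0.53. The fixed proliferation list, with 29 bright genes, had a median ratio of 0.23, 0.00 and −0.01, and 0 of them met the rule, where 0.607% of all named bright genes did, so nothing is read from that count. Ccbe1, a secreted protein needed for lymphatic vessels, had ratios of 1.01, 0.50 and 0.30. Amn, which anchors the cobalamin receptor in absorptive epithelia, had ratios of 0.89, 0.36 and 0.30, and Krt27, a keratin of the hair follicle, had 0.64, 0.49 and 0.41. Gphb5, a subunit of the hormone thyrostimulin, had 0.49, 0.32 and 0.72, the pseudogene Pisd-ps2 had 0.57, 0.39 and 0.91, and Ccdc112 had 0.31, 0.74 and 0.58. By RefSeq, 47 of the 50 genes were protein-coding, 2 were transcribed pseudogenes (Pisd-ps2 and H2-Q5) and 1, Gm16982, was a long non-coding RNA, the last named after its value was seen.

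Gene order brought some members next to published genes. Of the 47 members placed among protein-coding genes in RefSeq order, 4 (8.51%) lay within 3 genes of a gene in the published list, against 390 of the 13164 named genes outside that list that could be placed (2.96%). Amn lies next to Traf3, an adaptor and inhibitor of the alternative NF-κB pathway, and Gm266 lies next to Tnfaip2, with Exoc3l4 the gene beyond it. The genes Cdc42bpb and Lbhd2 lie between Amn and Exoc3l4. Amn and Gm266 thus lie in the same stretch and share Exoc3l4, so they are not separate places in that count. The published neighbors were named after their values were seen. Traf3 had ratios of 0.45, 0.38 and 0.33, Exoc3l4 had 0.63, 0.46 and 0.42, and Tnfaip2 had 1.07, 0.34 and 0.19. Il18rap lies next to Il18r1, as given above, and Clip4, a microtubule-binding protein named after its place was seen, lies 3 genes from Lbh. Lbh had ratios of 1.26, 0.24 and 0.20 and, like Tnfaip2, did not meet the rule. The members and the published genes share the contrast that chose them, so this order is given as a description.

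At the edge of the rule the values on both sides lay close together. Just inside it, the lowest of the 3 log2 ratios was 0.2503 for Slfn3, of the Schlafen family, 0.2522 for Iqck, 0.2569 for the class I pseudogene H2-Q5, 0.2572 for Ppih, a cyclophilin of the spliceosome, and 0.2574 for Trim71, an RNA-binding ubiquitin ligase. Just outside it were Sod2, the mitochondrial superoxide dismutase, at 0.2498, the transcription factor Myb at 0.249, Btg1, which slows proliferation, at 0.2479, the RNA-binding protein Rbpms2 at 0.2468 and the neurotrophic factor Gdnf at 0.243. Sod2 had ratios of 0.30, 0.25 and 0.25, and Iqck had 0.27, 0.25 and 0.25. Outside the published list, 63 named genes, those just given included, had a lowest ratio between 0.2 and 0.25, and 25 of the 50 members had a lowest ratio under 0.3.

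The spots behind most of these genes were dim. In tumors 1, 2 and 3 the median control signal of the 50 probes was 28.7, 35.3 and 44.2, and that of all bright probes was 297, 280 and 311. In each tumor, 46 of the 50 probes lay under the latter value. A signal under 50 in at least 1 of the 6 channels was found for 37 members, and 5 members were at 100 or more in all channels. The 32 published genes past the same rule had median control signals of 316, 433 and 432, and 20 of them were at 100 or more in all channels. Brightness was compared between spots and is not a measure of transcript abundance.

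The ratios of dim spots depended on the normalization. The methods name normexp background correction, loess, spatial loess and Aquantile, and give no normexp offset. With these steps and an offset of 50, chosen here, the median log2 ratio of the 50 genes was 0.18, 0.17 and 0.19 in the 3 tumors. Their ratios were above 0 in all tumors for 49 genes and at 0.25 or higher in all tumors for 4, which were 1110032F04Rik, Fcgbp, H2-Q5 and Ifi47. Ifi47, an interferon-inducible GTPase named here after its values were seen, had ratios of 0.37, 0.34 and 0.35 by the rule and 0.38, 0.39 and 0.34 by this normalization. By the same normalization, 22 of the 32 published genes were at 0.25 or higher in all tumors. The exception to the sign was Tgif2, at −0.01 in tumor 1, also named after its values were seen. With no offset, an alternative chosen after seeing the data, 21 of the 50 genes were at 0.25 or higher in all tumors, and with the authors' own log2 ratios 11 were. The count thus depended on the offset, and the group is defined by the scanner's processed signals.

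**Figure D3:**
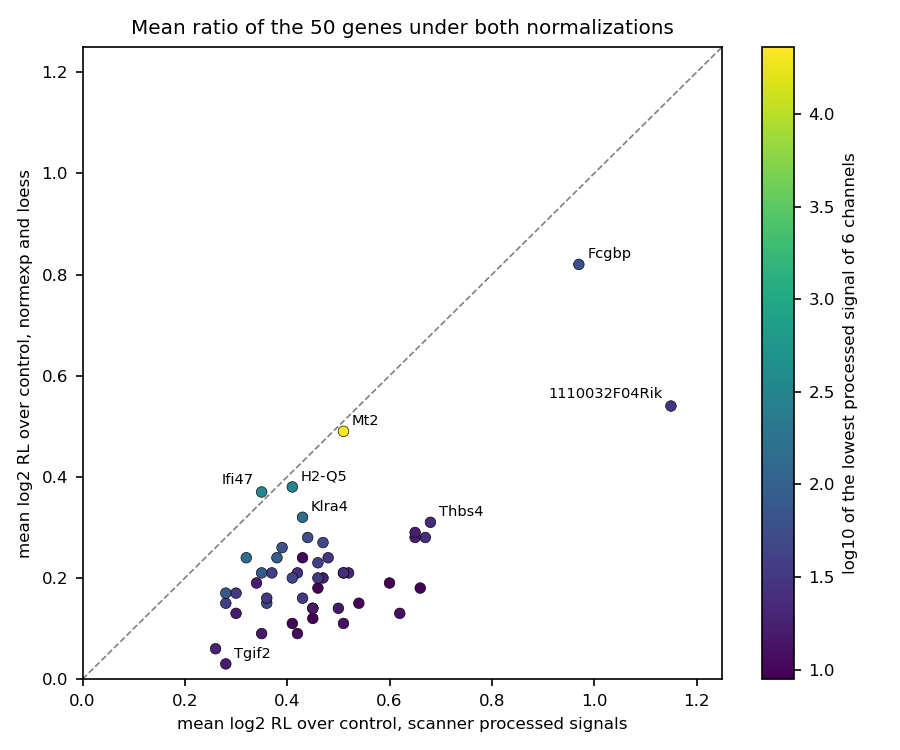
Mean log2 ratio of RL over control of the 50 genes from the scanner's processed signals (x axis) and after normexp with an offset of 50 and loess (y axis), colored by the log10 of the lowest processed signal of the 6 channels. Points on the dashed line have equal ratios, Mt2 and Ifi47 lie near it, and the dim genes lie below it.

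Other probes of the same genes mostly had smaller ratios. Of the 50 genes, 25 had a further probe on the array and 17 had at least 1 further probe well above background, 28 probes in all. The mean ratio of these 28 probes had a median of 0.13, while the probes that met the rule for the same 17 genes had a median of 0.43, a difference that the choice of the passing probe sets in part. Above 0 in all 3 tumors were 12 of the 28 probes. For 8 genes at least 1 further probe was above 0 in all tumors, and for 3 genes every such probe was. Ptpn2, a phosphatase that dampens cytokine signaling, and Lrp8, a lipoprotein receptor, were examples of the latter with ratios of 0.18, 0.51 and 0.07 and of 0.19, 0.17 and 0.09 on a further probe; both are named after their values were seen. A further probe of Nuf2 had 0.29, −0.16 and 0.07, and the further probes of Acaca had −0.03, 0.16 and −0.02 and 0.38, 0.20 and 0.17. Since probes of a gene can read different transcripts, the ratios of single probes are not those of a whole gene.

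**Figure D4:**
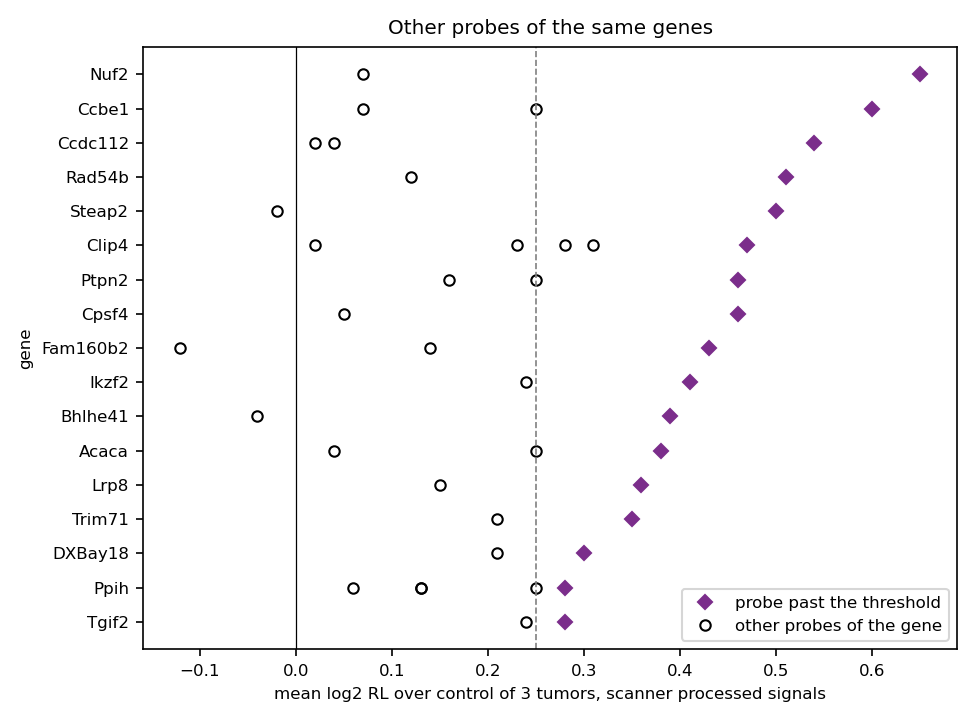
Mean log2 ratio of RL over control over the 3 tumors for the 17 genes with a further probe well above background, with the probe that met the rule as a filled diamond and each further probe as an open circle. The dashed line marks 0.25, and 25 of the 28 further probes lie above 0.

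Most of the 50 genes had smaller means than the published genes matched by symbol, with 1110032F04Rik and Fcgbp as exceptions near the top. The former counts among the 50 only because the list names its human counterpart, C3orf80. The 32 published genes past the rule had median ratios of 0.98, 0.38 and 0.44 in tumors 1, 2 and 3, and 27 of them were highest in tumor 1. Of the 10 largest means among all 83 genes, 2 belonged to the 50 genes, and 7 of the 50 lay above the published genes' median mean of 0.62. The published genes with the largest means were C3, a complement component, at 1.92, 0.52 and 0.60, the adhesion molecule Icam1 at 1.69, 0.74 and 0.48, and the semaphorin receptor Plxnd1 at 1.44, 0.27 and 0.91. Alox12e, the lipoxygenase left out by the rule, had 1.73, 0.82 and 1.11. Of the other published genes, 57 were under 0.25 in a tumor, 4 were not well above background and 7 had no probe of that name, among them C3orf80. The list is given for RL-treated PyMT tumor cultures, but this series is not the one that the data availability statement names, so whether the list came from these arrays is not known, and its counts are not taken as independent of them. Tnfrsf11a, the gene of RANK, had 0.16, −0.04 and 0.13, and the reference gene Hprt had −0.11, 0.21 and 0.02.

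In a fit across all 29419 probes well above background in all control or all RL channels, limma's moderated test called 1 probe higher (0.0034%) and 9 lower (0.0306%) at an adjusted p of 0.05. It called 0 of the 50 genes. At an unadjusted p under 0.05 it had 36 of them, where 3.77% of all probes were higher at that level. The rank product called 2 of them, 1110032F04Rik and Fcgbp, where 0.153% of all probes were called higher, and limma with a dye term called 10, where 0.704% of all probes were. The rule used this contrast, so nothing is read from these counts. The probe called higher was of Ubd, a ubiquitin-like protein of the antigen presentation list and of the published list. It had a log2 change of 0.92 (SE 0.09, limma adjusted p 0.0122). Ubd was not well above background in every channel and was tested only because the filter asked for 1 condition, so nothing is read from its call. Across the 28098 probes well above background in all channels, limma called 0 higher and 8 lower. The probes called lower were of the milk genes Wap (a pair of probes), Csn1s1 and Lalba, of Lrg1 and of Foxi1, with Them5 and Emid1, named after their values were seen, and 1 unnamed probe outside the lists, and none of these was a member. Lalba fell furthest, with a log2 change of −1.5 (SE 0.11, limma adjusted p 0.00475).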

How the data were processed

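The arrays hold RL and control cultures of 3 tumors, 1 array per tumor, with 59305 probe spots and 3671 control spots each. The deposited scanner files give raw and processed intensity per channel, which the authors obtained with Agilent Feature Extraction 10.7.3.1, per the submitters' processing notes. The deposited matrix holds log2 ratios by the authors, with no stated direction, and the sample titles name the Cy5 culture first. It was taken as Cy5 over Cy3 after comparison with the scanner values, and its medians were 0.0024, −0.0011 and 7e-04. From the deposited processed intensity, RL was divided by control on each array, taken as log2 and averaged over the spots of a probe. Median Cy3 signals were 42, 43 and 45 over backgrounds of 31, 34 and 36, and median Cy5 signals were 96.5, 99 and 100.5 over 70, 71 and 73.

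Gene names came from RefSeq, which named 28026 of 55681 probes (21154 gene names), and the files used here pair probes with accessions or chromosomal regions, not with gene names. For limma 3.58.1 (R 4.3.3), raw intensity was corrected by normexp (offset 50, chosen here, since the methods give none), loess, spatial loess and Aquantile, and p was adjusted by Benjamini-Hochberg over 29419 probes, all 50 members included. The limma step was tested on simulated data, from which nothing is read here, and other steps used Python 3.11.15.

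Values are named for the 15 largest means, members in a fixed list, the 5 genes on either side of the threshold, Nfkb2, Relb, Tnfrsf11a, Hprt, Alox12e, the 3 published genes with the largest means, and listed genes called by limma. Other names are said to be chosen after their values were seen. The published lists, in human names, were matched by symbol ignoring case. The members and lists were chosen with earlier results of these data known. Alternatives covered the threshold, normalization, filters, probe choice, dye, moderation, the rank product, the promoter window and each tumor left out. The setting without a normexp offset was chosen after seeing the data.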

Additional observations from a re-analysis of the deposited data

How the results depend on the processing

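The number of genes that met the rule was 113 at a minimum of 0.2, 25 at 0.3 and 3 at 0.5. It was 5 after normexp (offset 50) and loess, of which 4 were among the 50, 31 without the offset, of which 21 were, and 15 with the authors' ratios, of which 11 were. Without one tumor it was 178 to 497. It was 48 with median-centered ratios, 35 with only the brightest probe of a gene, and 50 with mouse synonyms matched or outlier spots left out. No spot was saturated. The setting without an offset was chosen after seeing the data. That file gene names also count as names was not run, because the files used here hold no gene name column. The cause was not tested.

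The median log2 ratio of the 50 genes, 0.20 after normexp and loess, was 0.44 with processed signals, 0.31 with the authors' ratios, 0.35 without the offset, 0.25 without background correction, 0.15 when loess gave way to median centering, and 0.17 as a mean over all probes of a gene. Without one tumor it was 0.18 to 0.21. Above 0 in all tumors were 49 genes, and 20 with median centering, which put the median of all probes tested at −0.38, 0.39 and −0.33 in tumors 1, 2 and 3. Above that median in all tumors were 19. The cause was not tested.

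The limma count of 10 probes was 0 with processed signals and 0 with median centering, 28 without background correction, 463 with a dye term, 54 with an intensity trend, 36 with robust moderation, 4 with no filter on dim probes, 17 with the brightest probe of each gene and 111 by the rank product. Without one tumor it was 4 to 2045, the latter without tumor 2, the array with RL in Cy5. In the 120 bases before the start, the NF-κB consensus was found for 2 genes (5.13% of 39), against 4.23% of all genes. GGANTTTCC was found there for 1 gene (2.56%), against 0.588% of all genes, and TGANTCA for 1 (2.56%), against 3.96%. The interferon-stimulated response element was found there for 0 genes, against 0.0925% of all genes. The cause was not tested.

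With 3 arrays, single spots and signals under 50 in a channel for 37 of the 50 genes, small ratios are imprecise. The labels and methods give different doses, and the series holds 1 array per tumor where the methods name dye swaps, so dye order and tumor cannot be told apart in tumor 2.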

Other observations

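The rule was also met by 78 probes with no RefSeq gene name, of which 51 are named only by a chromosomal region. Among 13667 named genes, 137 (1.0%) met the mirrored rule, and in the list of milk genes 6 of 11 measured genes did (Csn1s1, Csn2, Lalba, Spp1, Wap and Wfdc3, chosen after their values were seen), with a median log2 ratio of −0.49, −0.30 and −0.43 in tumors 1, 2 and 3. The 70 measured genes of the interferon response list had medians of 0.12, 0.02 and 0.08.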
